A study of Mus musculus with 28 samples.

Results

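The genes described here are 10 genes of iron, heme and ferritin handling, followed through a mouse skin wound: Hmox1, Slc40a1, Hp, Hpx, Tfrc, Steap4, Slc11a1, Fth1, Ftl1 and Ncoa4. They were chosen by name for these functions, with earlier results of these data known. All 10 are among the 29068 genes of the count table and among the 18107 genes that passed the filter on low counts. Transcriptome sequencing was performed on 28 libraries of skin from C57BL/6J mice during natural healing, with 4 libraries each of day 0, day 3, day 5, day 7, day 10, day 12 and day 14. Day 0 is the control of the labels, and the study's text numbers its first time day 1. When the day 0 tissue was taken relative to the wound is therefore not certain. Fold changes against day 0 are differences from that control. The mice carried both working copies of Mlkl (MLKL+/+) and were 8 weeks old, and the wound was a circular excision of 6 mm through the dorsal skin to the fascia. Wound tissue was taken as the whole site with scab and epithelial margins, so a library mixes the cell types of skin, of the tissue below and, after wounding, of the wound bed. The labels do not say whether the 4 libraries of a day came from 4 mice, and the p-values measure the spread between these libraries, which may be technical.

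A cell takes up iron bound to transferrin through the transferrin receptor, stores what it does not use in the ferritin shell, and releases the surplus through ferroportin. In tissue that has bled, hemoglobin and free heme are bound by haptoglobin and hemopexin, and macrophages that clear red cells split the heme with heme oxygenase and pass the iron on. Much of this system is controlled after transcription, by iron regulatory proteins that hold a hairpin in the mRNA, the iron-responsive element: in the 5′ untranslated region the bound hairpin blocks translation, and in the 3′ untranslated region it protects the mRNA from decay.

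Sites whose letters match such a hairpin are shown because for these mRNAs the known control acts on translation or decay, and the data hold mRNA levels only. The pattern searched was a C, then any 5 bases, then the loop CAGTGN, in which the last base is not G and the 5 bases before the loop can pair with the 5 bases after it (G with U pairs allowed), on the sense strand of 1 transcript a gene in GENCODE M21 (GRCm38). It was found in 4 of the 10 mRNAs: once in the 5′ untranslated region of Fth1 (chr19:9982733-9982759, plus strand), of Ftl1 (chr7:45459780-45459806, minus strand) and of Slc40a1 (chr1:45925466-45925492, minus strand), and 4 times in the 3′ untranslated region of Tfrc, the first at chr16:32631220-32631246 and the last at chr16:32631711-32631737 on the plus strand. Of all genes with such a region, 0.0896% hold the pattern in the 5′ and 0.378% in the 3′ untranslated region. The sites are written 5′ to 3′ as DNA with the loop in capitals.
Fth1: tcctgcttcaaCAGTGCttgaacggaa
Ftl1: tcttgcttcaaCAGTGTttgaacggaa
Slc40a1: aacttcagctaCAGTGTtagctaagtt
Tfrc, first site: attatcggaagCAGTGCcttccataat
Tfrc, last site: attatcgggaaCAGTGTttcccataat
A match of letters is a description of the sequence, and binding to it was not measured.

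Every library held between 36706513 and 40655764 counts, so depth differed little. The 4 libraries of day 0 were less alike than those of any later day, with a coefficient of variation between libraries of 26.4% over all genes, against 5.70% to 10.8% later. They fell into 2 pairs by tissue content: the summed level of 8 fibroblast markers was 5449 and 3302 FPKM (fragments scaled to gene length and library total) in replicates 1 and 4 and 12541 and 12113 FPKM in replicates 2 and 3, and the summed level of 8 skeletal muscle markers was 17795 and 18798 FPKM against 11438 and 11859 FPKM. On every later day the muscle markers summed to between 2468 and 6763 FPKM, below all day 0 libraries. Over the course, the markers of epidermal keratinocytes summed to 1783 to 3513 FPKM and those of hair follicles to 2.55 to 3405 FPKM. Leaving out 1 day 0 library is therefore given below wherever it changes a call at adjusted p under 0.05. The standard errors (SE) and edgeR p-values below come from 1 fit in which all days share the estimate of a gene's spread. Against day 0 they borrow the smaller spread of the later days and can look more precise than the day 0 libraries allow. The day 0 libraries of Slc40a1 had an SD of 0.48 on the log2 scale, and those of Slc11a1 0.37.

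As a group the genes rose early and fell back. Because the 10 genes were chosen with earlier results of these data known, the shares of all genes beside their counts are a description and no test. At day 3, 9 of the 10 were higher than at day 0 and 0 were lower, where 31.8% of all genes tested were higher and 34.8% lower (edgeR's quasi-likelihood test, Benjamini-Hochberg adjusted p under 0.05). At day 5 the count was again 9 higher and 0 lower, against 29% and 30.6% of all genes. At day 7 it was 9 higher and 1 lower, against 25.6% and 24.8%. Fewer stayed above day 0 afterwards: 6 higher and 0 lower at day 10 (23.5% and 26.9% of all genes), 4 higher and 2 lower at day 12 (21.7% and 25.6%), and 5 higher and 4 lower at day 14 (28.2% and 34.5%). The median log2 fold change of the 10 genes was 1.89 at day 3, 1.48 at day 5, 0.69 at day 7, 0.34 at day 10, 0.016 at day 12 and 0.14 at day 14, while that of all genes lay between -0.056 and 0.0024. By the limit of the study's methods applied to the edgeR values, a log2 fold change beyond 1.5 with unadjusted p under 0.05, 5 genes were higher at day 3 (18.9% of all genes passed in either direction), 5 at day 5 (13.9%), 3 at day 7 (9.4%), and 1 each at day 10 (9.47%), day 12 (7.39%) and day 14 (14%), and none was lower. The counts at days 7, 10 and 12 rest on values near this limit. With 1 library left out, the log2 fold change at day 10 ranged from 1.36 to 1.65 for Slc40a1 and from 1.41 to 1.63 for Hmox1. It ranged from 1.28 to 1.59 for Slc11a1 at day 7. For Hpx it ranged from 1.02 to 1.66 at day 10 and from 1.01 to 1.65 at day 12. The choice of scale bears on the last days: with library totals in place of composition factors the median of all genes moved to 0.11 at day 12 and 0.070 at day 14, the share of higher genes among those called moved from 45.8% to 67.4% and from 45.0% to 56.2%, and the 10 genes gave 5 higher and 2 lower at day 12 and 5 higher and 3 lower at day 14.

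Between neighbouring days most of the movement was downward. From day 3 to day 5, 1 gene rose and 3 fell, where 12.9% of all genes rose and 11.4% fell. The steepest loss followed, with 1 rising and 7 falling from day 5 to day 7 (13.9% and 14.6% of all genes), then 0 rising and 6 falling from day 7 to day 10 (14.3% and 18%) and 0 rising and 6 falling from day 10 to day 12 (18.7% and 20.7%). From day 12 to day 14 all 10 changed, 4 upward and 6 downward (19.9% and 25.3%). Over the 6 wound days together all 10 genes differed, as did 85.1% of all genes, so that this count sets the 10 genes little apart from the rest.

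**Figure D1:**
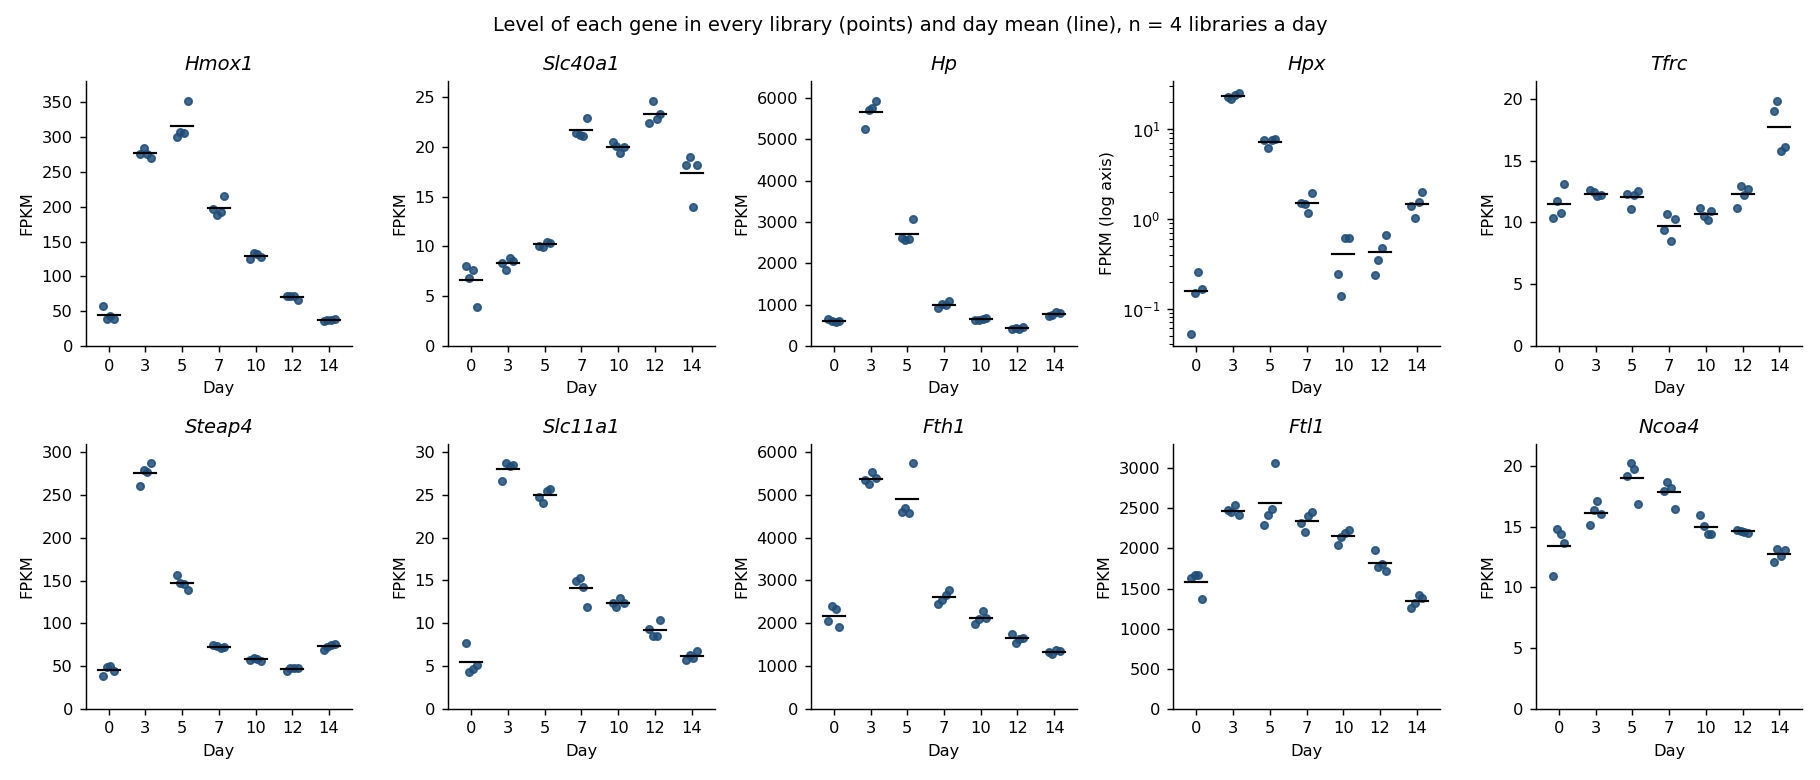
Level of each of the 10 genes in FPKM (vertical axes, from 0 except Hpx, which has a log axis) by day (horizontal axes); points are the 4 libraries of a day and lines their mean. Hp, Hpx, Steap4, Slc11a1 and Fth1 have their highest mean at day 3, Hmox1, Ftl1 and Ncoa4 at day 5, Slc40a1 at day 12 and Tfrc at day 14.

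The mRNA of Hmox1 peaked at days 3 and 5, and that of Slc40a1 was highest from day 7 to day 12. Hmox1 (chr8:75093621-75100589, plus strand) encodes heme oxygenase-1, the inducible enzyme that splits heme into biliverdin, carbon monoxide and iron. Its level in the 4 libraries was 58.1, 39.6, 43.5 and 38.9 FPKM at day 0, rose to 276, 285, 277 and 271 FPKM at day 3, and reached 300, 307, 306 and 353 FPKM at day 5. The libraries of both early days lay far above those of day 0. The fold change against day 0 was 6.39 at day 3 (log2 2.68 ± 0.09 SE, edgeR adjusted p = 1.27e-19) and 7.23 at day 5 (log2 2.85 ± 0.09, adjusted p = 8.93e-20), and the step between these days was not called (log2 0.18 ± 0.08, edgeR adjusted p = 0.131), although the libraries did not overlap. From there Hmox1 fell at each step, with means of 198 FPKM at day 7, 130 FPKM at day 10, 70.6 FPKM at day 12 and 37.7 FPKM at day 14. Day 14 ended below day 0 (log2 -0.38 ± 0.09, edgeR adjusted p = 0.000307), a difference that was no longer called when only the 8 libraries of both days were fitted (log2 -0.31), and on the FPKM scale, which uses library totals, the libraries of both days overlap.

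Slc40a1 (chr1:45908068-45926523, minus strand) encodes ferroportin, the iron exporter of the cell surface. The level was low and uneven at day 0, at 8.09, 6.83, 7.67 and 3.95 FPKM, and hardly different at day 3, at 8.37, 7.68, 8.85 and 8.58 FPKM. At day 7 the libraries reached 21.4, 21.2, 21.1 and 22.9 FPKM. The main rise thus fell between day 5 and day 7 (2.06-fold, log2 1.04 ± 0.12, edgeR adjusted p = 1.01e-07), while Hmox1 fell over the same step (log2 -0.72 ± 0.08, edgeR adjusted p = 1.46e-07). Against day 0 the fold change was 1.31 at day 3 (log2 0.39 ± 0.12, edgeR adjusted p = 0.00611), 1.58 at day 5 (log2 0.66 ± 0.12, adjusted p = 3.27e-05, libraries apart). It was 3.25 at day 7 (adjusted p = 3.45e-12), 2.9 at day 10 (adjusted p = 3.87e-11), 3.17 at day 12 (adjusted p = 1.33e-11) and 2.38 at day 14 (adjusted p = 7.55e-10). The call at day 3 was lost when the 8 libraries of both days were fitted alone (log2 0.36), and the exact permutation test over these libraries gave p = 0.0571. The highest means were 23.3 FPKM at day 12 and 21.6 FPKM at day 7, whose libraries overlap, and Slc40a1 was the only one of the 10 genes past the study's limit at day 12.

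Within a library, Hmox1 stood at 7.13 ± 1.95 times the level of Slc40a1 at day 0 (FPKM ratio, mean ± SD, n = 4). The ratio was 33.2 ± 2.70 at day 3 and 31.0 ± 2.20 at day 5, fell to 9.15 ± 0.20 at day 7 and 6.50 ± 0.30 at day 10, and ended at 3.03 ± 0.17 at day 12 and 2.21 ± 0.34 at day 14. Libraries of days 3 and 5 lay above and those of days 12 and 14 below all day 0 libraries, each with an exact permutation p = 0.0286, the smallest that 4 against 4 libraries allow. At day 7 the exact permutation p was 0.143 and at day 10 it was 0.771. This ratio, like that of the ferritin chains below, was added after the values had been seen.

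**Figure D2:**
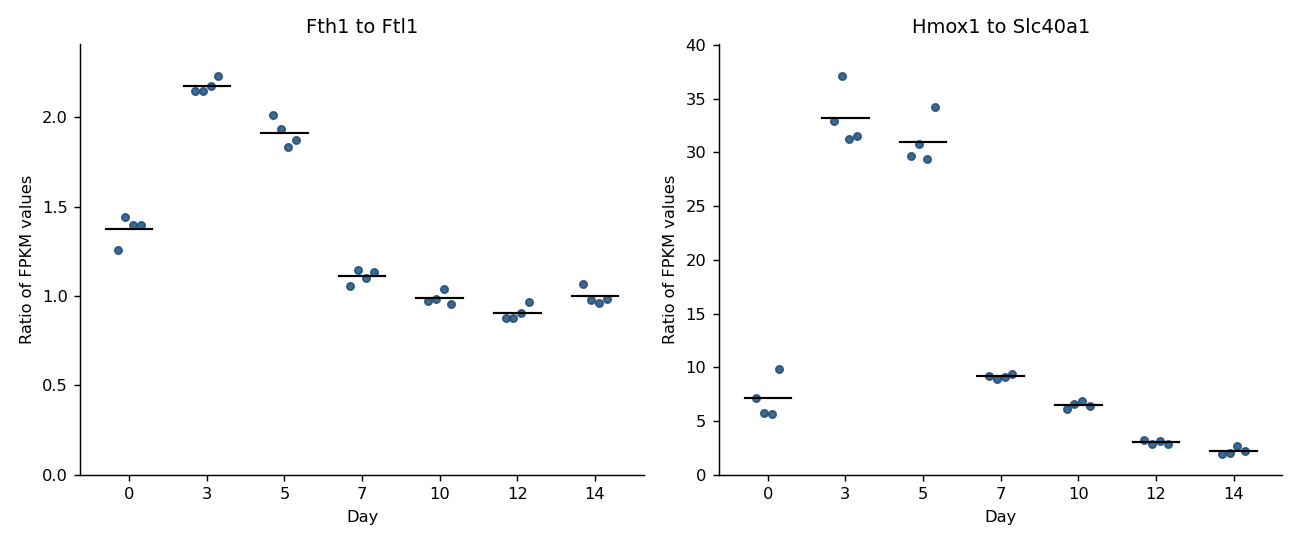
FPKM of Fth1 divided by that of Ftl1 (left) and of Hmox1 divided by that of Slc40a1 (right) in each library by day; points are the 4 libraries and lines their mean, and both vertical axes start at 0. The Fth1 to Ftl1 ratio has its highest mean of 2.17 at day 3 and the Hmox1 to Slc40a1 ratio its highest mean of 33.2 at day 3.

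At day 3 the mRNAs of the plasma scavengers had the largest fold changes of the 10 genes. Hp (chr8:109575128-109579172, minus strand) encodes haptoglobin, which binds free hemoglobin and is best known as a liver product that also comes from fat and from neutrophils. Its level was 660, 607, 583 and 613 FPKM at day 0 and 5251, 5715, 5758 and 5936 FPKM at day 3, where it had the highest mean FPKM of the 10 genes and took 0.762% of all counts, against 0.0829% at day 0. That is a 9.56-fold change (log2 3.26 ± 0.08, edgeR adjusted p = 7.89e-23). Haptoglobin mRNA then fell by more than 2-fold at each of the next 2 steps, to a mean of 2713 FPKM at day 5 and 1003 FPKM at day 7, and at day 10 it stood at 644 FPKM, where the difference from day 0 was not called (log2 0.010 ± 0.07, edgeR adjusted p = 0.916). It was below day 0 at day 12, with 416, 431, 418 and 460 FPKM (log2 -0.66 ± 0.07, edgeR adjusted p = 1.2e-08), and rose again by day 14, with 734, 754, 830 and 807 FPKM (1.83-fold over day 12, edgeR adjusted p = 1.17e-10).

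Hpx (chr7:105591613-105600137, minus strand) encodes hemopexin, the plasma protein that binds free heme. It was close to silent at day 0, with 3, 9, 15 and 9 counts, or 0.0519, 0.150, 0.258 and 0.166 FPKM. At day 3 the libraries held 1331, 1253, 1375 and 1457 counts, or 23.1, 21.7, 23.8 and 25.2 FPKM. The fitted fold change of 154 (log2 7.27 ± 0.33, edgeR adjusted p = 9.36e-17) rests on the few day 0 counts and is imprecise. Mean levels then dropped to 7.22 FPKM at day 5, 1.52 FPKM at day 7, 0.403 FPKM at day 10 and 0.428 FPKM at day 12. Day 10 and day 12 were called higher than day 0 (log2 1.31 ± 0.43 and 1.29 ± 0.43, edgeR adjusted p = 0.0134 and 0.0142), but their libraries overlap with day 0, the exact permutation p was 0.2 and 0.0571, and leaving out day 0 replicate 1 ended both calls (log2 1.02 and 1.03, edgeR adjusted p = 0.0554 and 0.0548). The call at day 10 was lost as well without day 10 replicate 3 (log2 1.02) or replicate 4 (log2 1.03), and that at day 12 without day 12 replicate 4 (log2 1.01). A second rise was seen at day 14, at 1.37, 1.01, 1.55 and 1.97 FPKM, all above day 0 and day 12 (3.49-fold over day 12, log2 1.80 ± 0.30, edgeR adjusted p = 2.35e-05). Hp and Steap4 rose over the same step.

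Markers of other cells are given here beside these changes. In bulk tissue, fewer cells of a type and less RNA per cell cannot be told apart. Of 10 hepatocyte markers 5 passed the filter, and the list summed to between 0.823 and 2.88 FPKM in every library, with Fgb at 0 counts on every day but day 3, so the defining liver transcripts were near 0 where Hp reached 5936 FPKM. The 10 neutrophil markers summed to between 80.4 and 88.9 FPKM at day 0, to between 7744 and 9870 FPKM at day 3, to between 2769 and 3590 FPKM at day 5 and to between 1004 and 1841 FPKM at day 7, and they were at 449 to 505 FPKM at day 10, 46.5 to 56.1 FPKM at day 12 and 37.2 to 45.7 FPKM at day 14. Ly6g had no count at day 0 and at day 12. At day 3, 9 of these 10 markers were higher than at day 0. At day 10, 8 were still higher and 1 lower, with a median log2 fold change of 2.52, while Hp was at log2 0.010. At day 14, 7 were lower and 0 higher, while Hp, Hpx and Steap4 were higher than at day 0. The 10 adipocyte markers summed to 7411 to 9547 FPKM at day 0, 7244 to 8587 FPKM at day 3, 6474 to 6937 FPKM at day 12 and 9999 to 10547 FPKM at day 14, so that the sums of days 0 and 3 overlap. The 7 brown adipocyte markers summed to 304 to 411 FPKM at day 0, 1046 to 1354 FPKM at day 3, where 5 were higher and 1 lower (median log2 1.31), 1731 to 2009 FPKM at day 5, 178 to 197 FPKM at day 12 and 854 to 1110 FPKM at day 14. Their sum, like the level of Hp, was lowest at day 12, and it was highest at day 5, when Hp had fallen from its peak. From day 12 to day 14, the step over which Hp, Hpx, Steap4 and Tfrc rose, all 10 adipocyte markers and 6 of 7 brown adipocyte markers rose, 6 of 10 neutrophil markers fell and 0 rose, and all 10 macrophage and all 8 fibroblast markers fell. The part of any of these cells in the levels of Hp, Hpx, Steap4 and Tfrc was not tested.

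Red cell and macrophage markers frame the course of Hmox1 and Slc40a1. The red cell list of 9 markers, 8 of them tested, summed to 246 to 370 FPKM at day 0 and 1891 to 2316 FPKM at day 3. It was at 1533 to 2272 FPKM at day 5, 1812 to 2194 FPKM at day 7, 1246 to 1413 FPKM at day 10, 496 to 624 FPKM at day 12 and 344 to 456 FPKM at day 14. All 8 were higher than at day 0 on day 7, and 6 were on day 3. The 10 macrophage markers summed to 829 to 1127 FPKM at day 0, 1927 to 1961 FPKM at day 3, 1883 to 2165 FPKM at day 5, 1338 to 1369 FPKM at day 7, 725 to 777 FPKM at day 10, 824 to 902 FPKM at day 12 and 320 to 350 FPKM at day 14, so that day 12 lay above day 10 and overlapped with day 0. At day 10, 7 of these 10 markers were lower than at day 0 and 2 higher, at day 12, 7 were lower and 0 higher, and at day 14 all 10 were lower, while Slc40a1 was higher on each of these days. The 8 fibroblast markers summed to 3302 to 12541 FPKM at day 0, 4518 to 5157 FPKM at day 3 and 7876 to 8343 FPKM at day 5. Their sum was 11298 to 11630 FPKM at day 7, 10974 to 11995 FPKM at day 10, 9411 to 10594 FPKM at day 12 and 3828 to 4304 FPKM at day 14. From day 5 to day 7, 1 of these 8 markers was called higher and 0 lower (median log2 0.38). Within day 0, replicate 4 had the lowest fibroblast sum and the lowest Slc40a1 level (3.95 FPKM). Replicate 1, with a fibroblast sum of 5449 FPKM, had the highest Slc40a1 level (8.09 FPKM). Replicates 2 and 3, with sums of 12541 and 12113 FPKM, had 6.83 and 7.67 FPKM of Slc40a1. Over the step from day 5 to day 7, the main rise of Slc40a1, all 9 hair follicle markers rose as well (median log2 6.38), their sum going from 4.88 to 7.91 FPKM up to 534 to 746 FPKM. At day 10 that sum was 148 to 172 FPKM and at day 12 it was 2459 to 3273 FPKM, while Slc40a1 was not called different over either step (log2 -0.17 from day 7 to day 10 and 0.13 from day 10 to day 12, edgeR adjusted p = 0.3 and 0.402). The part of these cells in the levels of Hmox1 and Slc40a1 was not tested.

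**Figure D3:**
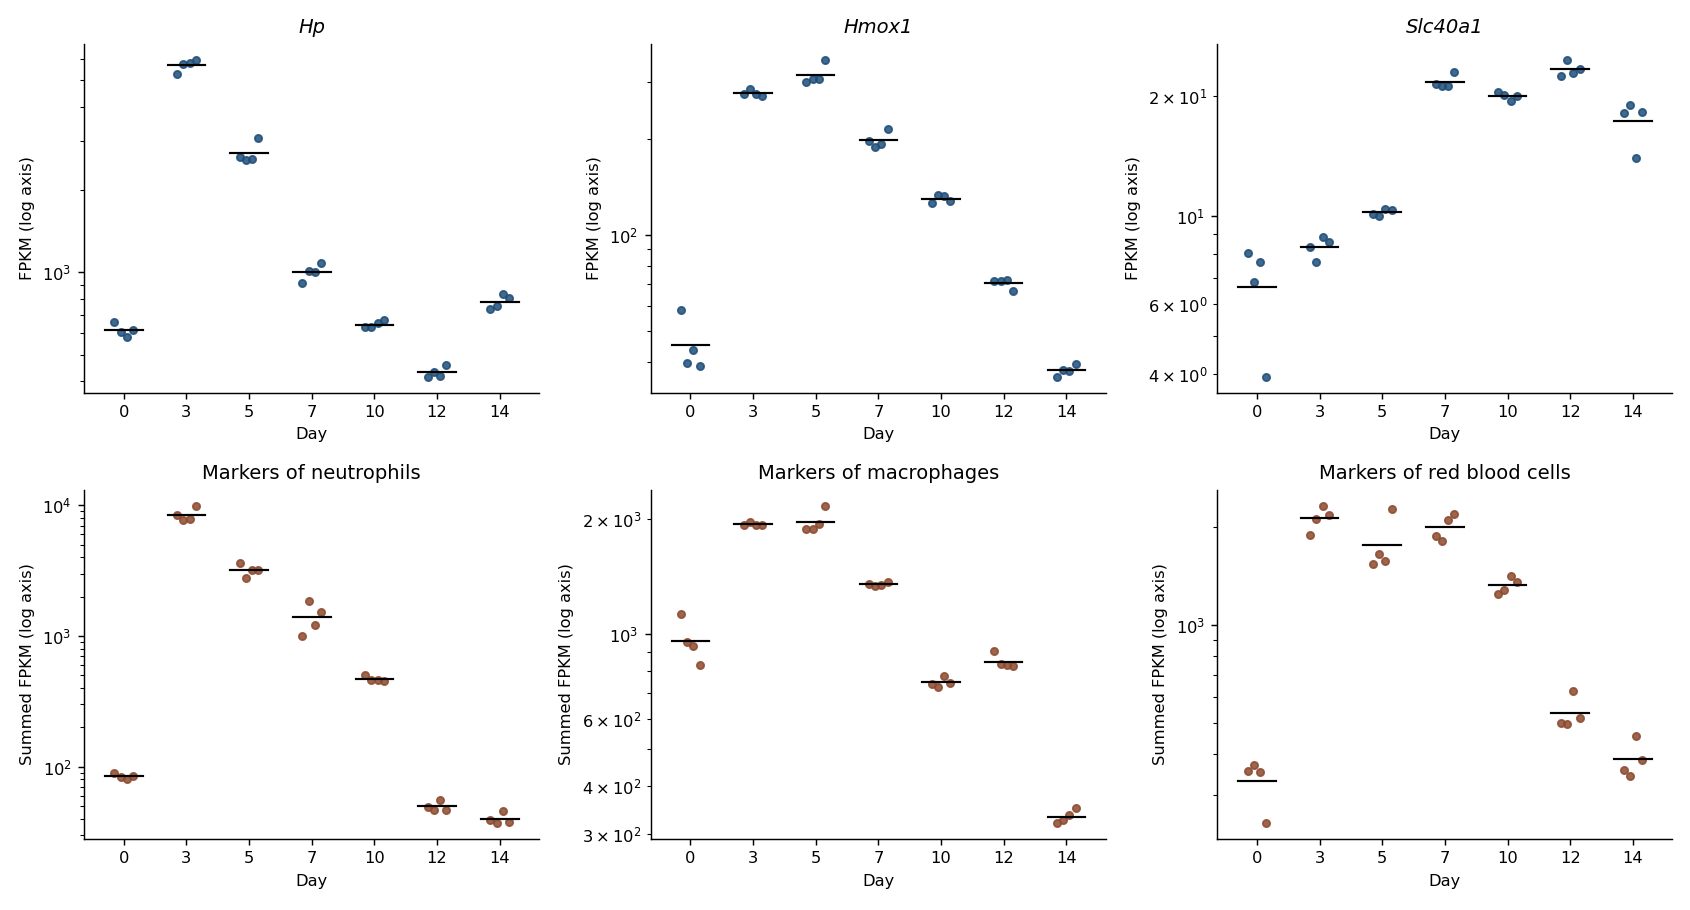
Top, level of Hp, Hmox1 and Slc40a1 in FPKM; bottom, summed FPKM of the markers of neutrophils, macrophages and red blood cells, all by day on log axes with 4 libraries (points) and their mean (line). The neutrophil sum is lowest at day 14, where Hp has a mean of 781 FPKM, and the macrophage sum is lowest at day 14, where Slc40a1 has a mean of 17.3 FPKM.

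The genes of uptake and reduction did not move together. Tfrc (chr16:32608920-32632794, plus strand) encodes the transferrin receptor, whose 3′ untranslated region holds the 4 pattern matches described above, the first and last of them printed. Its level was 10.4, 11.8, 10.8 and 13.1 FPKM at day 0 and 12.6, 12.4, 12.1 and 12.2 FPKM at day 3, and the libraries of these days overlap. The difference at day 3 was not called (log2 0.16 ± 0.07, edgeR adjusted p = 0.0614), but it was without day 0 replicate 4 (log2 0.27, edgeR adjusted p = 0.00252) and without any 1 of the day 3 libraries (log2 0.20 to 0.22). With the size factors of DESeq2 in the edgeR fit it was called as well (log2 0.17, edgeR adjusted p = 0.0494), and all 10 genes were then higher at day 3. Without day 0 replicate 4 the difference at day 5 was called too (log2 0.18 against 0.11), and without day 0 replicate 1 that at day 10 (log2 -0.20 against -0.16). Tfrc was the 1 gene lower at day 7 (9.36, 10.7, 8.49 and 10.2 FPKM, log2 -0.25 ± 0.07, edgeR adjusted p = 0.00618), with overlapping libraries and an exact permutation p = 0.0571. Its highest level was at day 14, with 19.0, 19.8, 15.8 and 16.1 FPKM, above every other library of the course. This was a 1.46-fold rise over day 12 (log2 0.55 ± 0.07, edgeR adjusted p = 1.03e-06) and a 1.41-fold rise over day 0 (adjusted p = 1.51e-06).

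Steap4 (chr5:7960457-7982213, plus strand) encodes a metalloreductase that reduces ferric iron and copper and is known to be induced in inflammation. It went from 38.4, 48.9, 50.6 and 43.6 FPKM at day 0 to 260, 279, 277 and 287 FPKM at day 3, a 6.32-fold rise (log2 2.66 ± 0.07, edgeR adjusted p = 2.74e-22). The mean was 147 FPKM at day 5, 72.5 FPKM at day 7, 57.7 FPKM at day 10 and 47.0 FPKM at day 12, a fall at every step. At day 12 it was not called different from day 0 (log2 -0.092 ± 0.06, edgeR adjusted p = 0.238), although it was without day 0 replicate 1 (log2 -0.14, edgeR adjusted p = 0.0328) and had the opposite sign with library totals (log2 0.052). At day 14 it rose again to 69.1, 71.8, 74.8 and 75.6 FPKM (1.57-fold over day 12, edgeR adjusted p = 3.84e-09).

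Slc11a1 (chr1:74375195-74386062, plus strand) encodes NRAMP1, which moves iron and manganese out of the phagosome of macrophages and neutrophils. The strain C57BL/6 carries a well-known loss-of-function allele of this gene, so its mRNA level says nothing of transport here. The level was 7.63, 4.31, 4.67 and 5.07 FPKM at day 0, 26.6, 28.7, 28.4 and 28.5 FPKM at day 3 and 24.7, 24.04, 25.4 and 25.7 FPKM at day 5. Day 3 was 5.37-fold above day 0 (log2 2.43 ± 0.12, edgeR adjusted p = 4.38e-16), and the gene stayed above day 0 at day 7 (2.59-fold), day 10 (2.2-fold) and day 12 (1.53-fold, edgeR adjusted p = 8.12e-05, exact permutation p = 0.0857). At day 14 it was at 5.69, 6.26, 5.93 and 6.74 FPKM, and the difference was not called (log2 0.054 ± 0.12, edgeR adjusted p = 0.709). This last result depended on day 0 replicate 1, the highest of its day: without it day 14 was higher (log2 0.35, edgeR adjusted p = 0.000686).

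The promoters of Steap4 and Hpx, which rose at day 3 and again at day 14, are printed because these genes moved together with Hp. Promoter sequences of RefSeq (GRCm38.p6, 250 bases before to 50 after the start) were found for 7 of the 10 genes and not for Hmox1, Slc40a1 and Hp. Both strands were searched for TTGCNNAA, a pattern of C/EBP factors, and TTCNNNGAA, a pattern of STAT factors. The patterns do not overlap each other in these promoters. Of 32851 promoters of that length 10.8% hold the first and 8.3% the second. Steap4 (chr5:7960222-7960521, plus strand) holds each once, and Hpx (chr7:105600067-105600366, minus strand) holds the first once. Capitals mark the matches.
Steap4: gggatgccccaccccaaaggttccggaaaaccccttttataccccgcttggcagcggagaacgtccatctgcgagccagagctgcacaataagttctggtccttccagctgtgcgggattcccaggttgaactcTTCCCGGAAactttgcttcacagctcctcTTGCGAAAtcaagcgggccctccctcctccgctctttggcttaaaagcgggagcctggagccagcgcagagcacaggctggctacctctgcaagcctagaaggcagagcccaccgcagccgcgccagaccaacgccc
Hpx: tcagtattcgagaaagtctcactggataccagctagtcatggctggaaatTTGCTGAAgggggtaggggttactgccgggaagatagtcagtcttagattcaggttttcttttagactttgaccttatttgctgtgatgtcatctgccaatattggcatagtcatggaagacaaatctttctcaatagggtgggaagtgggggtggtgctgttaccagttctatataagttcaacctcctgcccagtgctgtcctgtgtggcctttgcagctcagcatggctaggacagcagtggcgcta
Among the other promoters, 1 of the 2 listed for Fth1 holds the first pattern, in 2 places, and those of Slc11a1, Ftl1, Ncoa4 and Tfrc hold neither. Factor binding was not measured.

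**Figure D4:**
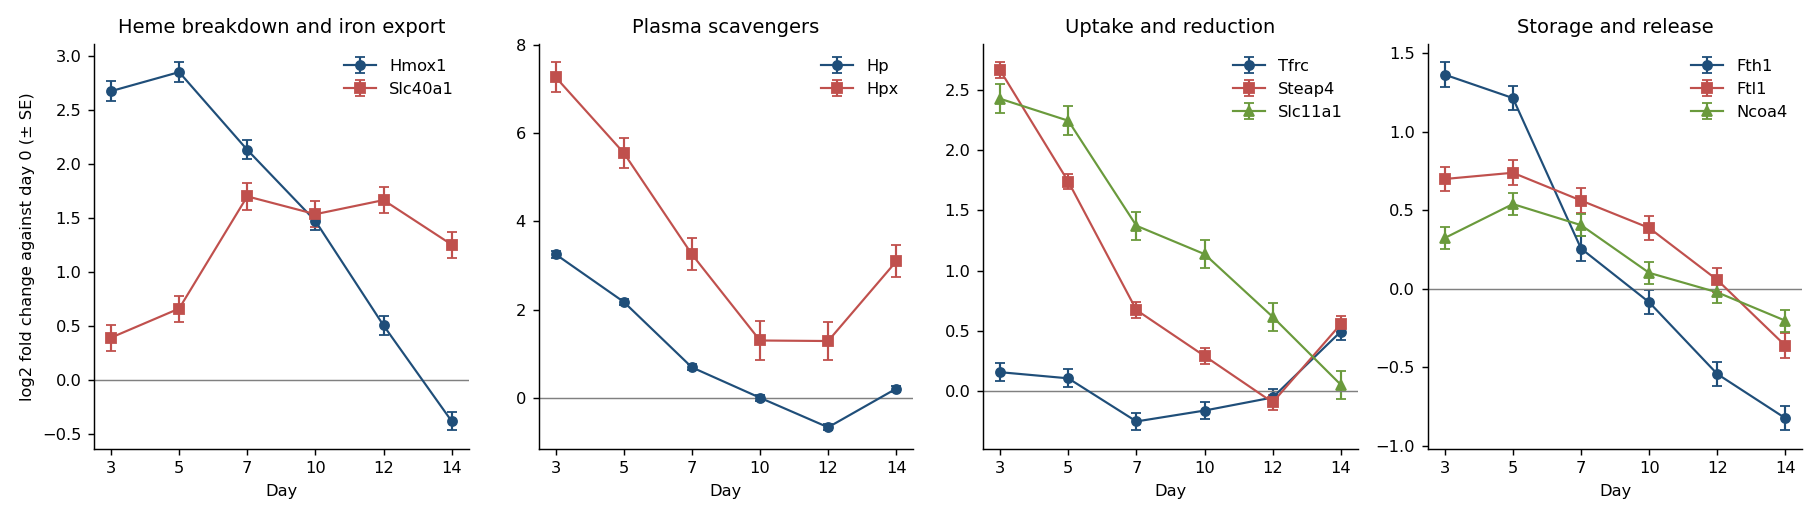
Log2 fold change against day 0 (vertical axis, edgeR estimate) by day (horizontal axis) for the 10 genes in 4 panels by role. Bars are ± 1 SE from the spread shared over all days, and the grey line marks no change. Hmox1 falls from 2.85 at day 5 to -0.38 at day 14 while Slc40a1 is at 1.25 or more from day 7 on, and Hp, Hpx, Steap4 and Tfrc are higher at day 14 than at day 12.

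The mRNAs of both ferritin chains changed in level and in their ratio to each other. Fth1 (chr19:9980598-9985098, plus strand) encodes the heavy chain, which oxidises iron on entry, and Ftl1 (chr7:45457944-45459884, minus strand) the light chain, which helps to form the mineral core. Fth1 was at 2048, 2397, 2331 and 1916 FPKM at day 0 and 5336, 5259, 5529 and 5387 FPKM at day 3 (2.57-fold, log2 1.36 ± 0.08, edgeR adjusted p = 1.09e-14), when it took 0.507% of all counts. It was 2.32-fold above day 0 at day 5, and at day 7 the mean was 2601 FPKM (log2 0.26 ± 0.08, edgeR adjusted p = 0.00688). The day 7 difference was not called in a fit of these 8 libraries alone, where it was of similar size (log2 0.22). Then it went below: day 12 was at 1736, 1548, 1640 and 1660 FPKM (log2 -0.54 ± 0.08, edgeR adjusted p = 1.55e-06) and day 14 at 1337, 1287, 1366 and 1359 FPKM (log2 -0.83 ± 0.08, edgeR adjusted p = 4.25e-10), lower than in every day 0 library.

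The light chain moved less and for longer. Ftl1 was at 1631, 1664, 1669 and 1372 FPKM at day 0, with day 3 at 2485, 2451, 2541 and 2415 FPKM and day 5 at 2288, 2424, 2499 and 3062 FPKM. The fold change was 1.62 at day 3 (log2 0.70 ± 0.08, edgeR adjusted p = 1.13e-08), 1.67 at day 5, 1.48 at day 7 and 1.31 at day 10 (edgeR adjusted p = 0.000172), a day on which Fth1 was not called different from day 0 (log2 -0.087 ± 0.08, edgeR adjusted p = 0.365). Ftl1 was below day 0 only at day 14 (log2 -0.36 ± 0.08, edgeR adjusted p = 0.000231), and at day 12 its call depended on the scale (log2 0.056 and edgeR adjusted p = 0.593, but log2 0.20 and higher with library totals). Within a library, Fth1 stood at 1.37 ± 0.081 times Ftl1 at day 0 (FPKM ratio, mean ± SD, n = 4), at 2.17 ± 0.039 at day 3, 1.91 ± 0.079 at day 5, 1.11 ± 0.040 at day 7, 0.987 ± 0.036 at day 10, 0.907 ± 0.043 at day 12 and 0.997 ± 0.046 at day 14. All libraries of days 3 and 5 lay above and all from day 7 on below those of day 0 (exact permutation p = 0.0286 for each day). The ferritin genes have many near-identical copies in the mouse genome, and reads could have been shared with them: the copies in the table, Fthl17a, Fthl17f and Ftl1-ps2, held at most 5 counts together beside Fth1 and 11 beside Ftl1, and other copies were not analysed here.

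Ncoa4 (chr14:32159865-32179855, plus strand) encodes the receptor that brings ferritin to the lysosome, where its iron is released. Its level was 10.9, 14.8, 14.4 and 13.6 FPKM at day 0 and 19.1, 20.2, 19.7 and 16.9 FPKM at day 5, its highest mean, and the libraries do not overlap. The change was modest, 1.25-fold at day 3 (log2 0.32 ± 0.07, edgeR adjusted p = 0.000193), 1.45-fold at day 5 (log2 0.54 ± 0.07, edgeR adjusted p = 1.45e-07) and 1.32-fold at day 7. At day 14 the gene was called lower (log2 -0.20 ± 0.07, edgeR adjusted p = 0.0122), but the libraries overlap with day 0 (exact permutation p = 0.143), and the call was lost with library totals (log2 -0.078) and on leaving out day 0 replicate 2 (log2 -0.11), replicate 3 (log2 -0.13) or replicate 4 (log2 -0.12). Ordered by mean FPKM, no neighbouring days of Ncoa4 were apart.

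For the other genes, the order of days by mean FPKM was as follows, with libraries apart unless said. Hmox1 ran day 5, 3, 7, 10, 12, 0 and 14, the last 2 overlapping. Slc40a1 ran day 12, 7, 10, 14, 5, 3 and 0, with overlap of days 12 and 7 and of days 3 and 0. Hp ran day 3, 5, 7, 14, 10, 0 and 12, where days 10 and 0 overlap. Steap4 ran day 3, 5, 14, 7, 10, 12 and 0, where days 14 and 7 and days 12 and 0 overlap. Hpx and Slc11a1 led with days 3, 5 and 7. For Hpx days 7 and 14, and days 12, 10 and 0 ran into each other, and for Slc11a1 days 7 and 10 and days 14 and 0 did. Fth1 ran day 3, 5, 7, 0, 10, 12 and 14, with overlap of days 3 and 5 and of days 0 and 10. Ftl1 ran day 5, 3, 7, 10, 12, 0 and 14, with overlap along the first 4 and of the last 2, and Tfrc stood apart at day 14 alone.

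The genes whose course was most like each of the 10 are named from the correlation of log2 CPM over the 28 libraries, among 12308 genes with a mean CPM (counts scaled to the library total) of at least 5. The libraries of a day share their stage, so these values describe the course and carry no test. Hp was closest to Lrg1 (Pearson r = 0.993), Sod2 (0.988) and Grina (0.984), and Steap4 to Lrg1 (0.988), Sod2 (0.985) and Car4 (0.982), so that both shared their leading pair. Hmox1 was closest to Gusb (0.991), Loxl3 (0.990) and Slpi (0.983), and Slc11a1 to Adam8 (0.991), Pla2g7 (0.987) and Plaur (0.987). For Fth1 the closest were Bcl3 (0.984), Nfkbie (0.983) and Rab7 (0.983), and for Ftl1 Plod1 (0.975), Elk3 (0.974) and Bcat1 (0.972). Slc40a1 stood with Epha3 (0.956), Eln (0.922), which encodes elastin, and Cdh11 (0.911). Hpx stood with H2-Q10 (0.958), Hsd11b1 (0.956) and Gsr (0.955), Tfrc with Psmb3 (0.891), Atp1b3 (0.886) and Hspa4 (0.860), and Ncoa4 with Copa (0.944), Man2b1 (0.935) and Eif4e3 (0.923). Among the 10 genes themselves, Hp with Steap4 (r = 0.98) and Hmox1 with Slc11a1 (0.97) and Ftl1 (0.96) were most alike. Slc40a1 had a negative r with each of the other 9, from -0.47 with Fth1 to -0.034 with Hmox1.

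The wider pathway was described by 8 lists of 61 genes, of which 59 were tested. Together 29 were higher and 20 lower at day 3, 28 and 16 at day 5, 18 and 15 at day 7, 18 and 17 at day 10, 12 and 21 at day 12, and 15 and 23 at day 14. The late counts depend on the scale: with library totals they were 14 higher and 13 lower at day 12 and 21 higher and 19 lower at day 14. The median log2 fold change at day 12 was then 0.0069 in place of -0.14. Of all genes 31.8% were higher and 34.8% lower at day 3, 29% and 30.6% at day 5, and 25.6% and 24.8% at day 7. The shares were 23.5% and 26.9% at day 10, 21.7% and 25.6% at day 12, and 28.2% and 34.5% at day 14. These shares apply to the counts of each list below as well, and no list was tested against them.

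Among 11 genes of scavenging and uptake, 6 were higher and 4 lower at day 3, and 5 higher and 4 lower at day 14. Steap1, a relative of Steap4, rose from 0.657 to 10.3 FPKM at day 3 (log2 4.02 ± 0.23, edgeR adjusted p = 7.89e-15). Slc39a14, an importer of iron not bound to transferrin, rose from 2.99 to 22.6 FPKM (log2 2.97 ± 0.09, edgeR adjusted p = 5.51e-21). Both were also higher at day 14 (log2 2.80 and 1.05). Cd163, the macrophage receptor for hemoglobin bound to haptoglobin, was at 27.9 FPKM at day 0, 47.9 FPKM at day 5, 21.2 FPKM at day 7, 3.69 FPKM at day 10, 15.6 FPKM at day 12 and 2.14 FPKM at day 14 (log2 -3.83 ± 0.19 against day 0, edgeR adjusted p = 3.14e-15). Slc11a2, the importer DMT1, changed by at most 0.42 on the log2 scale.

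Of 6 secreted iron binders and oxidases, 3 were higher and 2 lower at day 3, and 1 higher and 3 lower at day 14. Lcn2, which binds bacterial siderophores, rose from 9.53 to 961 FPKM at day 3 (log2 6.71 ± 0.16, edgeR adjusted p = 7.89e-23) and was below day 0 at day 14 (log2 -0.75 ± 0.14, edgeR adjusted p = 4.55e-05). Cp, the plasma ferroxidase ceruloplasmin, rose to 41.3 FPKM at day 3 (log2 1.65) and was lower at day 14 (log2 -0.84), and Heph, its membrane relative, was lower at day 3 (log2 -1.14). Hephl1 fell at day 5 (log2 -1.57) and was higher at day 14 (log2 1.37). Trf, which encodes transferrin, was at 412 FPKM at day 0 and 402 FPKM at day 3 and was lower from day 5 on, with log2 changes between -1.03 and -0.63. Ltf, lactoferrin of neutrophil granules, stayed at 41 counts or fewer in every library.

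Of the hepcidin list of 8 genes, 7 of them tested, 2 were higher and 5 lower at day 3, 0 higher and 3 lower at day 12 and 0 higher and 4 lower at day 14. Of all genes 34.8%, 25.6% and 34.5% were lower on these days. Hjv, the hemojuvelin gene, which muscle also expresses, fell from 73.3 to 15.01 FPKM at day 3 (log2 -2.23 ± 0.14, edgeR adjusted p = 9.65e-14) and was lower on every wound day, as were all 8 skeletal muscle markers. Hamp2 was lower on each wound day too, by log2 -3.09 at day 3 and -4.11 at day 14. Hamp, the hepcidin gene, held at most 26 counts in any library. Hamp and Hamp2 are close copies, so reads could be split between them.

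Of the 5 tested iron regulatory proteins and chaperones, 3 were higher and 1 lower at day 3, and 4 higher and 0 lower at day 14. Ireb2, which binds the hairpins shown above, was higher on every wound day by log2 0.26 to 0.35, whereas Aco1, the other such protein, was called at day 12 only (log2 -0.32). Fbxl5, which removes Ireb2 when iron is plentiful, rose from 10.6 to 23.6 FPKM at day 3 (log2 1.21 ± 0.06, edgeR adjusted p = 5.73e-16). Pcbp1, an iron chaperone of ferritin, was higher on all wound days, up to log2 0.55 at day 14.

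Of 9 genes of heme synthesis, 4 were higher and 2 lower at day 3, and 3 higher and 2 lower at day 14. These counts are near the shares of all genes (31.8% and 34.8% at day 3, 28.2% and 34.5% at day 14). Alas2, the first enzyme of the pathway in red cell precursors and also on the red cell list, rose from 3.50 to 25.2 FPKM at day 3 (log2 2.91 ± 0.14, edgeR adjusted p = 5.32e-16) and was still at log2 2.62 at day 7. Alas1, the form of other cells, was higher by log2 0.47 at days 3 and 5, and Alad was lower at day 3 (log2 -0.70) and higher at day 14 (log2 0.48). Of 8 genes of heme breakdown and transport, 4 were higher and 2 lower at day 3, and 1 higher and 6 lower at day 14. Hmox2, the constant form of heme oxygenase, changed by at most log2 0.53, and the biliverdin reductases Blvra and Blvrb rose by log2 0.92 and 0.27 at day 3, while Flvcr2 fell by 0.53 on the log2 scale. The lowest log2 fold change in this list was -1.22, at day 14. Of 7 mitochondrial iron and iron-sulfur cluster genes, 3 were higher and 2 lower at day 3 and 1 each at day 14. Slc25a37, the mitochondrial iron importer mitoferrin-1, was higher on all wound days, by log2 0.69 at day 3 and 1.21 at day 14, and its relative Slc25a28 was higher at days 3 and 5 and lower afterwards.

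Of the 6 regulators of Hmox1 and Slc40a1, 4 were higher and 2 lower at day 3, and 0 higher and 3 lower at day 14. Nfe2l2, which encodes the activator NRF2, rose from 42.8 to 77.7 FPKM at day 3 (log2 0.92 ± 0.04, edgeR adjusted p = 7.64e-17), and Bach1, the heme-sensing repressor, rose as well (9.40 to 18.4 FPKM, log2 1.03 ± 0.07, edgeR adjusted p = 1.22e-13). At day 3 Keap1, which holds NRF2 down, fell by 0.21 on the log2 scale and Mafk by 0.19. The lowest log2 fold change in this list was -0.60 at day 7 and -0.81 at day 10. Spic, the factor of iron-recycling macrophages, was low but higher at days 3 to 10, from 0.687 FPKM at day 0 to 3.28 FPKM at day 7 (log2 2.24 ± 0.31, edgeR adjusted p = 6.4e-07), and lower at day 14 (log2 -1.12 ± 0.36, edgeR adjusted p = 0.00897).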

How the data were processed

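What was measured is total RNA of skin and wound tissue (TRIzol preparation, VAHTS Universal V6 libraries). Deposited by the authors were a table of raw gene counts and a table of FPKM values, and per the labels the build was mm10 and the tools included fastp and R 3.2.0. Aligner, counter, annotation and strand setting are not given in the sources used here. The deposited FPKM values were used for levels, since they divide each count by gene length and library total. All tests used the deposited counts as they stand in edgeR 4.0.16 (R 4.3.3): TMM factors, filterByExpr, 1 quasi-likelihood fit of 28 libraries by day with 21 residual degrees of freedom, and Benjamini-Hochberg adjustment over 18107 genes. The study's methods name DESeq2 with limits on fold change and unadjusted P, and DESeq2 1.42.0 and limma 3.58.1 on log2(FPKM + 1) or log2(FPKM + 0.1) served as alternatives. Other alternatives were other scaling, filters on low counts, fewer libraries, the replicate number as a block, each library left out and ferritin copies added to their parent gene. The scripts were tested on simulated counts.

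Library totals lay between 36706513 and 40655764 counts, and no 2 libraries of a day agreed within sampling noise. Replicate numbers did not pair the libraries. Level ratios within a library were compared with exact permutation tests of 4 against 4 libraries (smallest p 0.0286). Pathway genes were named if on a short list fixed by hand, or if among the 2 with the largest called change against day 0 in their list with a mean CPM of at least 1. The members, lists and rules were chosen with earlier results of these data known. Gene positions and untranslated regions came from GENCODE M21 and promoters from RefSeq (GRCm38.p6), which is the build mm10 names.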

Additional observations from a re-analysis of the deposited data

Results flagged for a closer look

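Of 70 sets of 4 libraries (10 genes on 7 days), 10 had 1 library whose gap to the next, divided by the range of the 4 on the log2 CPM scale, exceeded the limit of Dixon's test for 4 values. Chance alone would give about 3.5, since about 1 set in 20 is picked out by chance. At day 5, 3 of the 4 such libraries were replicate 4, the highest for Hmox1 (gap 0.916 of the range, 353 FPKM against 300 to 307), Hp (0.838, 3071 FPKM against 2566 to 2625) and Fth1 (0.909, 5733 FPKM against 4576 to 4683). The remaining one at day 5 was replicate 2, the lowest for Hpx (0.878, 6.11 FPKM against 7.55 to 7.66). Slc40a1 had 3, namely day 7 replicate 4 as highest (0.964, 22.9 FPKM against 21.1 to 21.4), day 10 replicate 1 as highest (0.838, 20.5 FPKM against 19.4 to 20.1) and day 14 replicate 3 as lowest (0.831, 14.0 FPKM against 18.2 to 19.0). Ftl1 had day 0 replicate 4 as lowest (0.940, 1372 FPKM against 1631 to 1669) and day 3 replicate 3 as highest (0.888, 2541 FPKM against 2415 to 2485), and Slc11a1 had day 3 replicate 1 as lowest (0.867, 26.6 FPKM against 28.4 to 28.7). Among the results that rest on these libraries, calls that changed when a library was left out are given with the gene concerned.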

How the results depend on the processing

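Under the alternatives, 231 counts of changed members stayed within 1.5 times of the reported value and 1 did not, for day 5 against day 3, where a fit of these 8 libraries alone called 7 genes and the fit of all libraries 4. Among the alternative fold changes against day 0, 1032 kept their direction and side of the threshold, 22 lost the call, 13 gained it and 19 changed sign, all 19 in differences that were not called. At day 12 the sign changed with library totals for Ncoa4 (log2 0.12), Steap4 (0.052) and Tfrc (0.093), as it did in limma on log2(FPKM + 0.1) (0.13, 0.060 and 0.095) and on log2(FPKM + 1) with or without a filter (0.12, 0.058 and 0.089). With 1 library left out, the log2 fold change of Hp at day 10 ranged from -0.016 to 0.052, that of Ncoa4 at day 12 from -0.090 to 0.031 and that of Tfrc at day 12 from -0.077 to 0.031. With the replicate number as a block the count of changed members was the same in all 12 comparisons (between 4 and 10), and no fold change against day 0 gained or lost its call; same-numbered libraries did not deviate together (1 of 84 pairs with r over 0.1, and 8 of 28 libraries were closest to their own number). Day 0, with its uneven tissue content, limits the precision of every fold change against it, and Hpx at day 0 is limited by its 3 to 15 counts.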

Other observations

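Over the last step, from day 12 to day 14, 17 of the 59 pathway genes rose and 19 fell (edgeR's quasi-likelihood test, Benjamini-Hochberg adjusted p under 0.05), where 19.9% of all genes rose and 25.3% fell. Of 7 mitochondrial iron and iron-sulfur cluster genes 5 rose and 0 fell, of 9 heme synthesis genes 5 rose and 2 fell, and of 5 iron regulatory proteins and chaperones 3 rose and 0 fell. Slc25a37, the mitochondrial importer, went from 9.35 to 11.5 FPKM (log2 0.31 ± 0.09), Alad from 11.3 to 15.2 FPKM (log2 0.44 ± 0.10) and Aco1 from 26.2 to 33.3 FPKM (log2 0.37 ± 0.06). Of 8 genes of heme breakdown and transport 0 rose and 4 fell, and of 6 regulators of Hmox1 and Slc40a1 0 rose and 4 fell, among them Bach1 from 9.69 to 6.63 FPKM (log2 -0.53 ± 0.07) and Spic from 0.983 to 0.344 FPKM (log2 -1.49 ± 0.35). Alas2 fell as well (log2 -0.59 ± 0.14), as did 3 of 8 red cell markers in all, a list that holds Alas2, while 1 rose. In the remaining lists 2 of 11 genes of scavenging and uptake rose and 4 fell, 1 of 6 secreted binders and oxidases rose and 1 fell, and 1 of 7 genes of the hepcidin list rose and 4 fell. No test of a list was made.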
